A study of Mus musculus with 19 samples.

Results

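The miRNAs described here are those of the red-cell cluster of miR-144 and miR-451a and of miR-486, chosen on the array by their names: every entry whose systematic name has the stem mmu-miR-144, mmu-miR-451a or mmu-miR-486 with any arm suffix. The rule found 4 entries among 1079 mouse miRNAs, namely mmu-miR-144-3p, mmu-miR-144-5p, mmu-miR-451a and mmu-miR-486-3p. No entry was named mmu-miR-486-5p. RefSeq gives mir-486b as another name of the gene Mir3107, and the 5p arms of mir-486a and mir-486b are known to have the same mature sequence, so both arms of mmu-miR-3107 were added, and miR-3107-5p is taken here as the reading of miR-486-5p. The reference tables used here hold no sequence for either gene, so what its probes bind was not checked. This made 6 miRNAs.

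miRNAs were measured with single-colour arrays in inbred mice that are inherently high-active (C57L/J) or low-active (C3H/HeJ) on running wheels. Male mice were housed at 8 weeks of age and then lived for 1 week with a locked wheel, in both strains. There were 7 arrays of the nucleus accumbens, a reward region of the ventral forebrain (4 high-active, 3 low-active), 6 of the soleus, a slow postural muscle (4 high-active, 2 low-active), and 6 of the extensor digitorum longus (EDL), a fast muscle (2 high-active, 4 low-active). Each array held 1 tissue of 1 mouse, and the mouse number links the tissues of an animal. The strains differ throughout their genomes, so a difference between them cannot be told apart from any other inherited difference of C57L/J and C3H/HeJ.

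Mir144 and Mir451a form a cluster that is transcribed together under the red-cell factor GATA1. miR-451a is among the most abundant miRNAs of red cells and is unusual in being cut by Argonaute 2 and not by Dicer. miR-486 lies within Ank1, the gene of the membrane skeleton protein ankyrin 1, which is used in red cells from one promoter and in skeletal muscle from another. In muscle, miR-486-5p is known for acting on Foxo1, a transcription factor that drives genes of muscle protein breakdown. Whole blood that stays in a dissected tissue brings red-cell miRNAs with it. In bulk tissue, fewer cells of a kind and less of a miRNA in each cell cannot be told apart.

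The mature sequences that RefSeq gives for 3 of the 6 miRNAs are shown because their seeds differ although they come from the same cluster. Capitals mark the seed, bases 2 to 8. miR-101a-3p is shown beside them because it was the only miRNA in the table that had the same bases 2 to 7 as miR-144-3p, and because its signal is set beside that of miR-144-3p below.

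mmu-miR-144-5p: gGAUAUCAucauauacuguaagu
mmu-miR-144-3p: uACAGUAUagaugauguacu
mmu-miR-451a: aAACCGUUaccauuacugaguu
mmu-miR-101a-3p: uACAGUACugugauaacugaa

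In build GRCm38.p6 these lie at chr11:78073010-78073032, chr11:78073047-78073066 and chr11:78073186-78073207, all on the plus strand, and miR-101a-3p at chr4:101346957-101346977 on the minus strand. The 2 hairpins follow each other with 99 bases between them, that of miR-144 at chr11:78073005-78073070 and that of miR-451a at chr11:78073170-78073241. They are shown to set the usual arrangement, with a mature arm on either side of a loop of 14 bases, beside that of miR-451a, whose mature sequence is a single run at positions 17 to 38 of a hairpin of 72 bases. Capitals mark the mature sequences.

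Mir144 hairpin: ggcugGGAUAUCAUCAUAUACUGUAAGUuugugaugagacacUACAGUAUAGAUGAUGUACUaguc
Mir451a hairpin: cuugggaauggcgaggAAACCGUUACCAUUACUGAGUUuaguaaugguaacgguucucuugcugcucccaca

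Signals are given as log2 of the scanner's processed signal, after each array was scaled by the 75th percentile of its common probes. A value of 4.54 is the floor below which signals were not told apart, and a miRNA is called detected when over 0.5 of the spots of a probe were well above background. Probes differ in how brightly they bind, so a miRNA is compared with itself between arrays and not with another miRNA. Before scaling, the 75th percentile ran from 658 to 2209 signal units over the 19 arrays, and the lowest value was that of the EDL of low-active mouse 195, on which 242 miRNAs were detected against 266 to 392 on the others. The tissue labels held: all 5 brain markers tested, among them miR-124-3p, were lower in both muscles, and the summed signal of the 6 muscle markers was 472 to 2321 in the nucleus accumbens against 473479 or more in every muscle array. The highest of those nucleus accumbens sums, 2321, was that of low-active mouse 197, whereas the other 6 arrays lay between 472 and 592.

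miR-451a was detected on all 19 arrays. In the nucleus accumbens its signal was 12.33, 10.93, 11.75 and 11.07 in high-active mice 223, 224, 225 and 227. It was 13.75, 11.98 and 12.97 in low-active mice 194, 195 and 197. The 7 values span 7.03-fold, the widest span of any member in that tissue, and the high-active values overlapped the lowest low-active value. In the soleus the signal was 12.86, 12.12, 12.25 and 12.13 in high-active mice 223, 224, 225 and 227, and 12.52 and 12.77 in low-active mice 194 and 195. These spanned only 1.67-fold, with high-active mouse 223 the highest of the 6. In the EDL it was 11.21 and 11.68 in high-active mice 225 and 227, and 12.07, 10.68, 11.52 and 11.30 in low-active mice 194, 195, 196 and 197. Every EDL value was below every soleus value.

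miR-3107-5p, taken as the reading of miR-486-5p, was also detected on all 19 arrays, but it separated the tissues. In the nucleus accumbens it was 6.56, 5.84, 6.70 and 6.21 in high-active mice 223, 224, 225 and 227, and 8.17, 7.09 and 7.52 in low-active mice 194, 195 and 197. The low-active values were all above the high-active ones. In the soleus it was 10.21, 10.83, 11.05 and 10.92 in high-active mice 223, 224, 225 and 227, and 10.54 and 10.46 in low-active mice 194 and 195. In the EDL it was 11.73 and 12.32 in high-active mice 225 and 227, and 12.00, 10.84, 12.48 and 11.48 in low-active mice 194, 195, 196 and 197. No nucleus accumbens array reached any muscle array, and 5 of the 6 EDL arrays lay above all soleus arrays, the exception being the dim EDL array of mouse 195.

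miR-486-3p, the opposite arm of mir-486, was not well above background on any of the 7 nucleus accumbens arrays and was detected on all 12 muscle arrays. In the soleus its signal was 6.56, 7.17, 7.57 and 7.23 in high-active mice 223, 224, 225 and 227, and 7.30 and 7.38 in low-active mice 194 and 195. In the EDL it was 8.23 and 8.64 in high-active mice 225 and 227, and 8.23, 7.55, 8.65 and 7.67 in low-active mice 194, 195, 196 and 197. The EDL of mouse 195 lay just under the highest soleus value, and the other 5 EDL values were above it. miR-3107-3p followed the same pattern, undetected on the 7 brain arrays, between 6.37 and 7.32 in the soleus and between 7.41 and 8.40 in the EDL; how far its probes also read the 3p arm of mir-486a is not known from the files.

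Both arms of miR-144 were near the limit of the array. miR-144-3p, the arm that carries most known miR-144 targets, was detected on 8 of 19 arrays. The highest signal was 7.55, in the soleus of high-active mouse 223, followed by 5.57 in the nucleus accumbens of low-active mouse 197 and 5.45 in the soleus of high-active mouse 224. miR-144-5p was detected on 3 arrays, all of the nucleus accumbens, at 5.70 in mouse 194, 4.86 in mouse 197 and 4.55 in mouse 223. These 3 were the arrays with the highest miR-451a of that tissue. On the other 16 arrays miR-144-5p was not well above background.

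**Figure D1:**
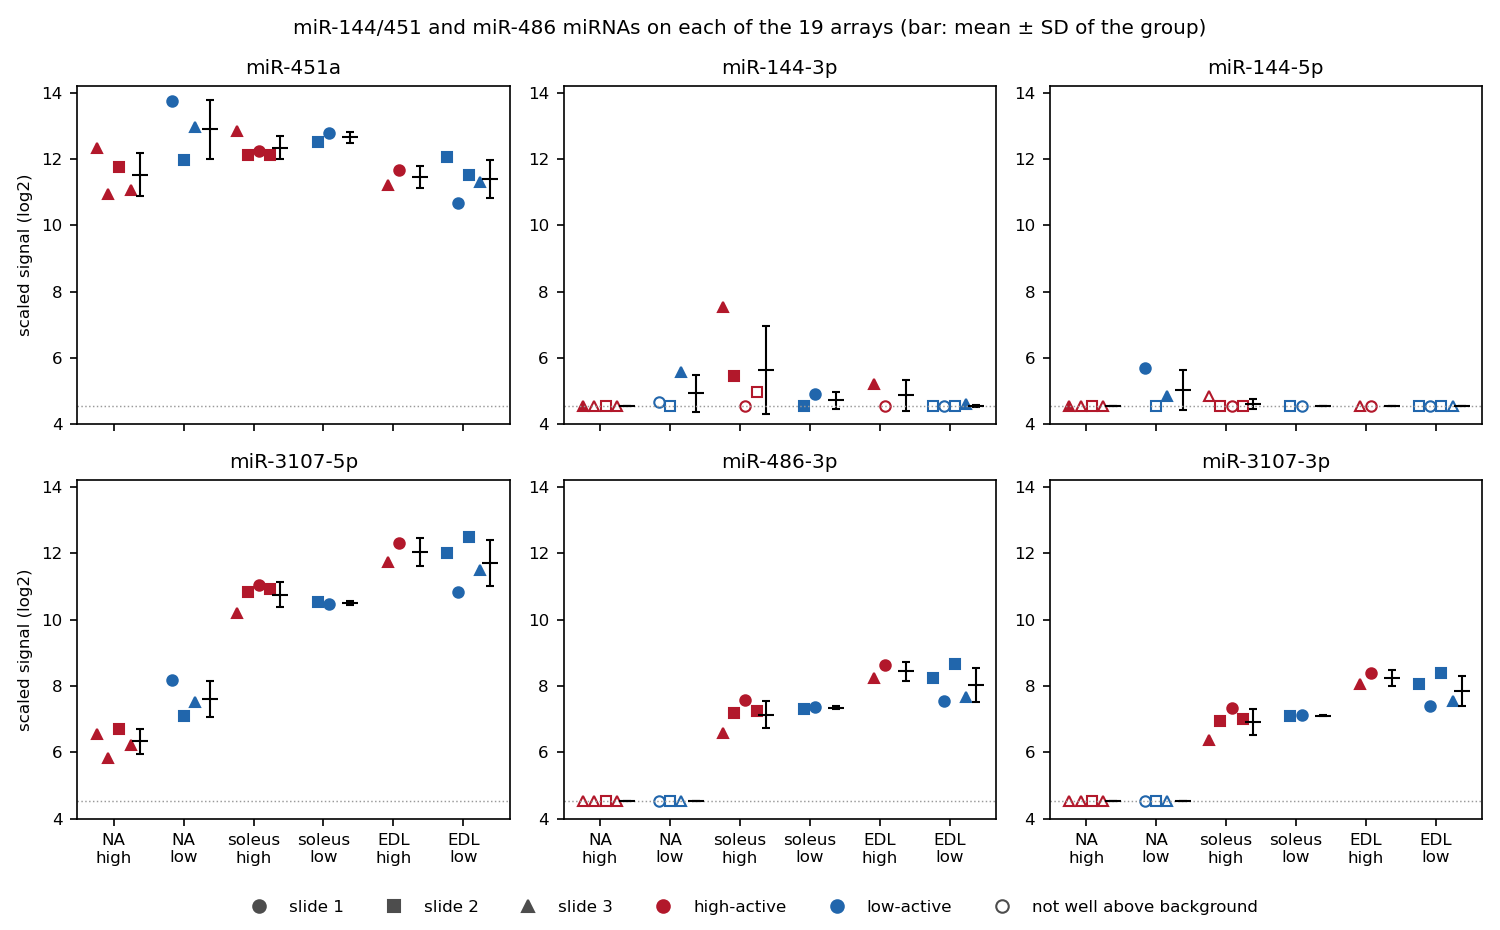
Scaled signal (log2) of each of the 6 miRNAs on each of the 19 arrays, by tissue (NA, nucleus accumbens) and strain; the shape of a point gives the slide, open points were not well above background, bars are mean ± SD of a group and the dotted line is the floor of 4.54. miR-451a reached 10.68 or more on every array, whereas miR-486-3p and miR-3107-3p stood at the floor on all 7 nucleus accumbens arrays and rose from soleus to EDL.

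The first comparison was between tissues, averaged over both strains, and the 2 groups of red-cell miRNAs went separate ways. Against the nucleus accumbens, miR-3107-5p was higher by 3.67 on the log2 scale in the soleus (SE 0.264, adjusted p = 1.03e-09, limma) and by 4.90 in the EDL (SE 0.264, adjusted p = 2.11e-11, limma). These are 12.7-fold and 29.9-fold. miR-451a differed from the nucleus accumbens by 0.28 in the soleus, which did not pass the test (SE 0.309, 95% interval -0.37 to 0.94, adjusted p = 0.392, limma). In the EDL it was lower by -0.79 (SE 0.309, adjusted p = 0.0264, limma). Most miRNAs differ between brain and muscle: 84.5% of the 407 tested passed in the soleus and 84.5% in the EDL, so passing by itself sets no member apart. The median difference of all 407 was -0.25 in the soleus and -0.30 in the EDL. Scaling over all probes moved that median to 0.24 and 0.27, and the share of called miRNAs that were higher in the EDL went from 141 of 344 to 197 of 354. Under it miR-451a passed as higher in the soleus (0.83, adjusted p = 0.0253, limma) and did not pass in the EDL (-0.13, adjusted p = 0.710, limma). Relative to the median of all miRNAs, miR-451a in the EDL stood at -0.49 with the main scaling and at -0.41 with scaling over all probes. The EDL call was also lost without the EDL array of mouse 195 or 225 or the nucleus accumbens array of mouse 194 or 223.

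Because miR-486-3p was never above background in the brain region, its difference has only a lower bound. Over the nucleus accumbens, the soleus was at least 6.25-fold higher and the EDL was higher by a factor of at least 12.4. For miR-3107-3p the bounds were 5.33-fold and 10.9-fold. Each bound took for a brain array the highest of its weakest detected signal, the probe's own signal and the floor. Without the floor among these the bounds were 6.80-fold and 13.5-fold for miR-486-3p and 5.80-fold and 11.9-fold for miR-3107-3p. The limma fit used floored values, where miR-486-3p differed by 2.70 and 3.69 (adjusted p = 3.77e-10 and 5.25e-12, limma). All 7 brain values stood at the floor in that fit, without any spread. Its p-values therefore add nothing to the detection in muscle alone and do not belong to the bounds. miR-144-3p passed in no tissue comparison, at 0.44 for soleus against nucleus accumbens (SE 0.370, adjusted p = 0.264, limma) and -0.02 for EDL against nucleus accumbens. With slide as a block the first of these passed (0.81, adjusted p = 0.0308, limma). miR-144-5p was detected on too few arrays to be tested between tissues.

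Between the 2 muscles the members moved in opposite directions. From soleus to EDL, miR-3107-5p rose by 1.23 (SE 0.280, adjusted p = 0.00449, limma), miR-486-3p by 0.99 (SE 0.191, adjusted p = 0.00131, limma) and miR-3107-3p by 1.03 (SE 0.175, adjusted p = 0.000497, limma). miR-451a fell by 1.07 (SE 0.328, adjusted p = 0.0300, limma), a 2.10-fold change. Of the 407 miRNAs, 18.2% passed in this comparison, with a median difference of 0. The fall of miR-451a did not pass without the EDL array of mouse 195 (-0.85, adjusted p = 0.0511), nor without EDL mouse 225 or 227 or soleus mouse 223, 194 or 195, whereas the rises of miR-486-3p and miR-3107-5p passed whichever single array was left out. On unscaled signals none of the 3 rises passed, and neither did the fall.

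The difference between members was tested directly, on the signal of one miRNA minus that of the other on the same array, with 4 exact permutation tests, two-sided. miR-3107-5p rose more than miR-451a by 3.47 on the log2 scale from nucleus accumbens to soleus (adjusted p = 0.00216, exact permutation test). From nucleus accumbens to EDL the gap was 5.64 and from soleus to EDL 2.17 (adjusted p = 0.00216 for each, exact permutation test). For miR-486-3p against miR-451a the gap from soleus to EDL was 1.99 (adjusted p = 0.00216, exact permutation test). The array-by-array gaps of the tissues did not overlap in any of the 4, and 0.00216 is the smallest adjusted value the design allows. How many other miRNAs part from miR-451a in this way was not counted. By themselves, 84.5% of the 407 miRNAs differed between the nucleus accumbens and each muscle, and 18.2% between the muscles. The separation is thus not shown to be particular to these members. Some arrays of different tissues come from the same mouse, which these tests do not use.

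**Figure D2:**
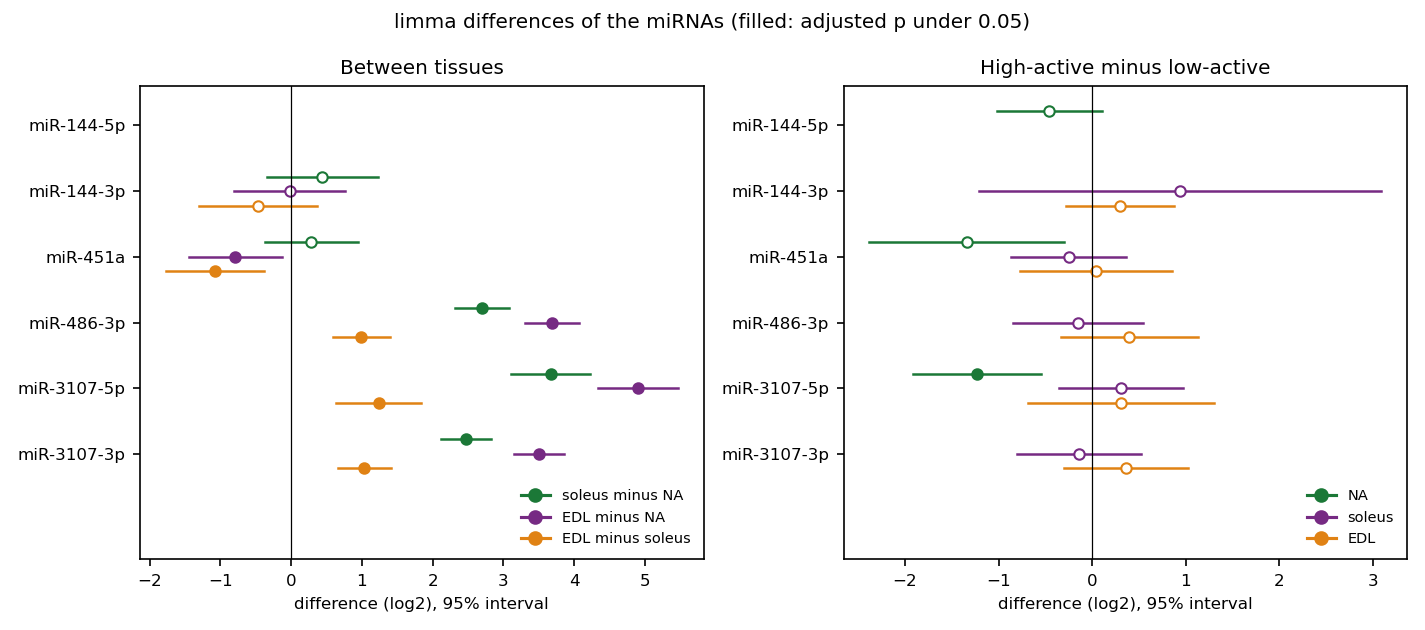
limma differences (log2) with 95% intervals for each miRNA, between tissues on the left and between strains within each tissue on the right; filled points passed at an adjusted p under 0.05. miR-486-3p and both arms of miR-3107 rose from nucleus accumbens (NA) to soleus to EDL, miR-451a was lower in the EDL, and among strain differences only that of miR-3107-5p in the nucleus accumbens passed.

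The second comparison was between strains within each tissue, the comparison for which the arrays were made. In the nucleus accumbens both measurable red-cell miRNAs had lower means in high-active mice. After scaling within the tissue, miR-3107-5p averaged 6.42 ± 0.42 (SD) over the 4 high-active arrays and 7.65 ± 0.47 (SD) over the 3 low-active ones. This is a difference of -1.23, or 2.35-fold lower in high-active mice (SE 0.293, adjusted p = 0.0488, limma). The groups did not overlap, but how many of the 391 miRNAs tested also parted in this way was not counted. Here 6.91% of 391 miRNAs passed, 23 of 27 of them lower in high-active mice. With scaling over all probes 20 passed, 7 of them higher, and with no scaling 4, of which 3 were higher. The result stood at the edge of the threshold: adjusted p was 0.288 with slide as a block (difference -0.91), and it missed 0.05 in 6 of the 7 fits that left out an array.

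For miR-451a the same averages were 11.61 ± 0.62 (SD) and 12.95 ± 0.81 (SD). Its difference of -1.34 was as large as that of miR-3107-5p but did not pass (SE 0.447, 95% interval -2.38 to -0.30, adjusted p = 0.148, limma). The arrays of the strains were not spread evenly over the 3 slides. Within slide 2, with 1 array of each strain, the difference was -0.18 for miR-451a and -0.34 for miR-3107-5p. Within slide 3, with 3 high-active arrays and 1 low-active array, it was -1.50 and -1.29. Without low-active mouse 197, whose brain array had the raised muscle markers, the differences were -1.31 for miR-451a (adjusted p = 0.195) and -1.28 for miR-3107-5p (adjusted p = 0.107). Without low-active mouse 194 they were -0.95 and -0.97. The part of slide and of these arrays in the result was not tested further. miR-144-5p differed by -0.46 (SE 0.242, adjusted p = 0.366, limma), and miR-144-3p was detected on too few brain arrays for the test.

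In the muscles no member passed between strains. In the soleus, where 1.17% of 342 miRNAs passed, the differences (high-active minus low-active) were -0.25 for miR-451a (95% interval -0.87 to 0.37), 0.31 for miR-3107-5p (-0.35 to 0.97) and -0.15 for miR-486-3p (-0.84 to 0.55). In the EDL, where 0.303% of 330 passed, they were 0.04 for miR-451a (-0.78 to 0.86), 0.31 for miR-3107-5p (-0.68 to 1.30) and 0.40 for miR-486-3p (-0.33 to 1.13). With 2 arrays in the smaller group of each muscle, these intervals are wide. They do not give the smallest difference that could have passed, and a missing call does not show that the strains are alike. The count at an unadjusted p under 0.05 was 59 miRNAs in the soleus and 24 in the EDL, and none of the members was among them.

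Whether the strain difference itself changed between tissues was tested as an interaction over all 19 arrays. For miR-3107-5p it was 1.52 higher in the soleus than in the nucleus accumbens (SE 0.528, adjusted p = 0.143, limma) and 1.59 higher in the EDL (SE 0.528, adjusted p = 0.126, limma). For miR-451a these were 1.07 (adjusted p = 0.442, limma) and 1.43 (adjusted p = 0.288, limma). None passed over all 19 arrays, against 4.18% and 2.7% of 407 miRNAs that did. For EDL against soleus 0.246% passed and the values of these members were 0.07 and 0.36. The EDL array of mouse 195 is in neither of these 2 tissues but enters the shared scaling and the shared estimate of the spread. Without it, the value of miR-3107-5p for soleus against nucleus accumbens was 1.71 and passed (adjusted p = 0.0190, limma). The median of all miRNAs in this interaction also moved, from 0.06 to 0.23. Whether the strain difference of miR-3107-5p differs between these tissues thus depends on that array.

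The third comparison followed the members over single arrays of a tissue. In the nucleus accumbens miR-451a and miR-3107-5p rose and fell together (Pearson r = 0.94, adjusted p = 0.0222; Spearman rho = 0.89, adjusted p = 0.0861; n = 7, exact permutation tests over 7 pairs of members). Mouse 194 was highest and mouse 224 lowest in both. A step of 1 in miR-451a went with a step of 0.75 in miR-3107-5p on the log2 scale. The correlation was 0.87 for deviations from the strain means and 0.92 for deviations from the slide means. Without the 2 arrays farthest from the median, mice 224 and 194, it was 0.79 and did not pass. Leaving out mouse 197 alone gave 0.93 and mouse 194 alone 0.88, neither of which passed (adjusted p = 0.0519 for each, exact permutation test), and the call held without any other single array.

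In the soleus the relation ran the other way. miR-451a and miR-3107-5p had r = -0.94 (adjusted p = 0.0389) and rho = -0.77 (adjusted p = 0.238; n = 6, exact permutation tests). Mouse 223 had the highest miR-451a and the lowest miR-3107-5p, miR-486-3p and miR-3107-3p of the 6 arrays. The negative sign was lost on unscaled signals, where r was 0.28. With scaling over all probes r was -0.54, and after quantile normalization it also stayed negative, neither of which passed. With single arrays left out r lay between -0.98 and -0.91, but over the remaining 5 arrays it passed in none of the 6 cases (adjusted p from 0.0778 to 0.169, exact permutation tests). Leaving out the 2 arrays farthest from the median, mice 223 and 224, gave -0.98 over 4 arrays. The soleus array of mouse 223 also had the lowest summed muscle marker signal of the 6, 473479 against 522586 to 634847, and the part of that in the relation was not tested.

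In the EDL miR-451a and miR-3107-5p had r = 0.71 (adjusted p = 0.169) and rho = 0.71 (adjusted p = 0.238; n = 6, exact permutation tests), and without the dim array of mouse 195 r was 0.14. That array also had the lowest muscle marker sum of the EDL, 528458 against 614149 to 851432. miR-486-3p and miR-3107-5p had r = 0.94 (adjusted p = 0.0389; rho = 0.89, adjusted p = 0.117; n = 6, exact permutation tests) in this muscle. With single arrays left out r lay between 0.91 and 0.97 and passed in none of the 6 cases (adjusted p from 0.0778 to 0.156, exact permutation tests). Without mice 195 and 227, the 2 farthest from the median, it was 0.89 over 4 arrays. In the soleus this pair had r = 0.70 (adjusted p = 0.165, exact permutation test), falling to 0.08 without mice 223 and 225. miR-451a against miR-486-3p had r = -0.70 in the soleus (0.57 on unscaled signals) and 0.52 in the EDL, neither of which passed.

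**Figure D3:**
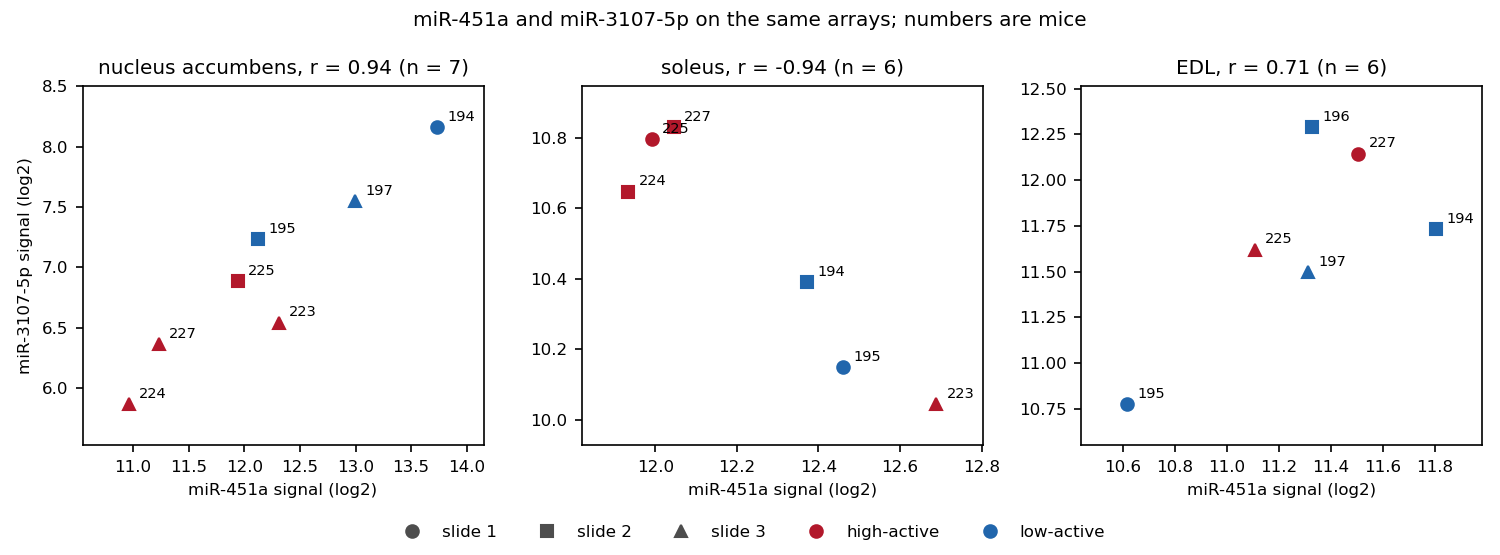
miR-3107-5p against miR-451a (scaled signal, log2, scaled within each tissue) on the same arrays, with a panel for each tissue; each point is an array labelled by its mouse, colour gives the strain and shape the slide. The points rise together in the nucleus accumbens (r = 0.94, n = 7), run downward in the soleus (r = -0.94, n = 6) and lie loosely upward in the EDL (r = 0.71, n = 6), where mouse 195 stands at the lower left.

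Other miRNAs known from red cells were set beside miR-451a. The list held miR-16-5p, miR-15a-5p, miR-15b-5p, miR-92a-3p, miR-25-3p, miR-363-3p and miR-185-5p, which many other cells also make. No array detected miR-363-3p, and the other 6 were detected on all 19. Over the nucleus accumbens arrays each of the 6 spanned between 1.51-fold (miR-185-5p) and 2.17-fold (miR-15b-5p), against 7.03-fold for miR-451a. In the soleus they spanned 1.27-fold to 1.75-fold against 1.67-fold, and in the EDL 1.19-fold to 1.90-fold against 2.61-fold. As a description with no test, their r with miR-451a over the 7 nucleus accumbens arrays was 0.87 for miR-15b-5p, 0.86 for miR-25-3p, 0.41 for miR-92a-3p and 0.33 for miR-185-5p, and -0.24 and -0.26 for miR-15a-5p and miR-16-5p. All values of an array share its scaling. None of the 6 passed between strains in any tissue, with a median of -0.15 in the nucleus accumbens against -0.11 over all miRNAs. From soleus to EDL 1 of the 6 fell and none rose (median -0.17), a share near the 18.2% of all miRNAs that passed, and the brightest members, miR-16-5p (-0.17, SE 0.101) and miR-15a-5p (-0.17, SE 0.121), did not pass.

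Markers of other cells in blood and vessels were set beside the fall of miR-451a from soleus to EDL, a comparison in which 31 of all 407 miRNAs fell and 43 rose. Of the 3 vascular miRNAs tested, 1 fell: the endothelial miR-126-3p by 0.40 (SE 0.0928, adjusted p = 0.00555, limma), and miR-143-3p of smooth muscle differed by -0.01. None of the 3 leukocyte miRNAs tested passed, miR-223-3p of granulocytes differing by -0.15 and miR-150-5p of lymphocytes by -0.03. None of the 6 muscle miRNAs rose and 3 fell, and their median was -1.49 against 0 over all miRNAs. The brightest of them, miR-1a-3p and miR-133b-3p, went the other way, differing by 0.33 and 0.55 without passing. The summed signal of the 6 muscle miRNAs was 473479 to 634847 in the soleus and 528458 to 851432 in the EDL. Their median is thus not a measure of the whole muscle signal. Over all 407 miRNAs 18.2% passed. With 3 to 6 miRNAs a list, no list was tested against that share. The part of vessel or blood content in these differences was not tested.

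miR-144-3p was detected unevenly over the slides. It was well above background on 5 of the 7 arrays of slide 3, on 2 of the 7 of slide 2 and on 1 of the 5 of slide 1. In a fit with group and slide over all 19 arrays, chosen after the values were seen, miR-144-3p differed by 0.87 between slide 3 and slides 1 and 2, which did not pass (SE 0.285, adjusted p = 0.0543, limma). Its median on slide 3 was 4.60, just over the floor. This difference was rank 6 from the top of 407 miRNAs, of which 14.3% passed, 14 higher and 44 lower. miR-101a-3p, which shares bases 2 to 7 with it, was higher by 0.75 (SE 0.180, adjusted p = 0.0197, limma), rank 9. The difference of miR-451a was -0.01 (SE 0.306) and was not tested against that of miR-144-3p, and that of miR-486-3p was -0.32 (SE 0.154, adjusted p = 0.172, limma). The high signal of miR-144-3p in the soleus of mouse 223 came from the only soleus array on slide 3, so slide and array cannot be told apart there.

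**Figure D4:**
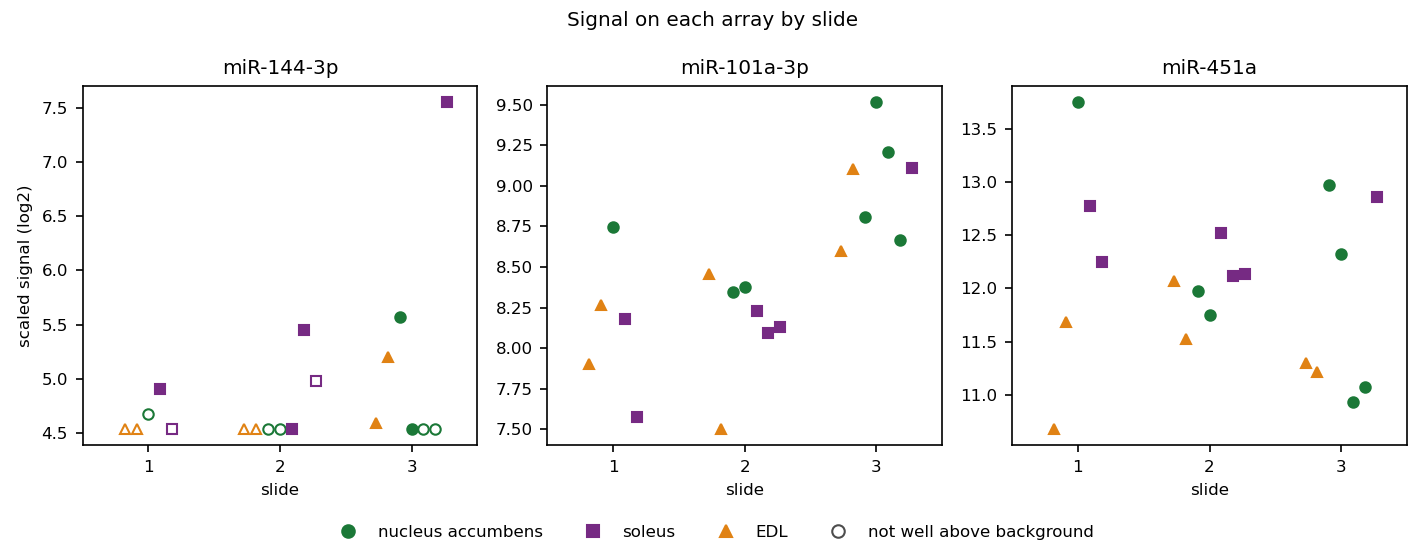
Scaled signal (log2) of miR-144-3p, miR-101a-3p and miR-451a on each of the 19 arrays, grouped by slide; shape and colour give the tissue and open points were not well above background. miR-144-3p was detected on 5 of 7 arrays of slide 3 and miR-101a-3p was higher there by 0.75; the difference of miR-451a was -0.01.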

How the data were processed

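RNA of each tissue was hybridised in 1 colour to Agilent mouse miRNA arrays, and the deposited scanner files hold spot intensities from Feature Extraction 10.7.1.1, background-subtracted by that software and not normalized between arrays. The authors also deposited a table of log2 values (percentile shift in GeneSpring, dim signals removed), centred within each tissue, which served as an alternative. Here outlier spots were dropped, spots averaged per probe, and arrays scaled by the 75th percentile of probes detected on all arrays (328 probes over 19 arrays; within the tissue for strain tests). Values were floored at the median of the arrays' lowest detected signals and taken to log2, and the brightest probe stood for a miRNA. miRNAs detected on 6 of 19 arrays, or on as many arrays of a tissue as its smaller strain group, were tested with limma 3.58.1 (R 4.3.3), Benjamini-Hochberg adjusted over all miRNAs tested, viral ones included. Relations between members used exact permutation tests (scipy 1.17.1). The functions were tested on simulated data for the strain comparison of each tissue and for EDL against soleus. There 93.3% to 98.3% of 4-fold changes were recovered and 0% to 2.22% of unchanged miRNAs were called. For EDL against soleus all other differences between tissues were taken out beforehand. Comparisons with the nucleus accumbens and interactions were not simulated. The changes were put into miRNAs detected on 15 or more arrays, so these rates do not cover smaller differences or members detected on fewer arrays. By the labels, arrays with 1 mouse number come from that animal. Over all miRNAs, same-mouse arrays of different tissues had a median correlation of deviations of 0.09 (15 pairs, -0.54 to 0.54). The authors removed 5 arrays before deposit. All values were read from probes, so the number of arrays limits the precision. miRNAs were named by rule: the stem members, both arms of miR-3107, the 2 brightest of each marker list, and the 5 most alike to each member detected on 15 or more arrays. Outside this rule, miR-101a-3p was named for the bases 2 to 7 it shares with miR-144-3p, and the list of other red-cell miRNAs was named in full. The members, lists and tests were chosen with earlier results of these data known. Alternatives were scaling, background, filter, floor, probe averaging, slide, mouse and single arrays.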

Additional observations from a re-analysis of the deposited data

Results flagged for a closer look

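In groups of 4 arrays, 13 sets of values of the 6 miRNAs were checked for a sample far from the others, and 3 had one. The rule is set to flag about 1 in 20 by chance, but this rate does not hold for values tied at the floor, so the count of 3 cannot be set against it. miR-451a in the soleus of high-active mouse 223 was 12.69 against 12.05 in the next array of its group. miR-144-5p in the same array was 4.69 while the other 3 were at the floor of 4.59, none of the 4 being well above background. miR-144-3p in the EDL of low-active mouse 197 was 4.61 while the other 3 were at the floor of 4.41. For both arms of miR-144 the other 3 arrays were tied, so any value above the floor would have been flagged.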

How the results depend on the processing

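The members' differences, correlations and shifts were recomputed under 1022 combinations of result and alternative, and 914 were counted as unchanged. For a result with a test, this meant the same side of the threshold and no turned direction. Strain differences within a slide have no test. They counted as unchanged when they lay closer to the main difference than the SD within strains. Among them, miR-451a in the EDL within slide 3 was -0.21 against 0.04, a turned sign. The rises of miR-486-3p and miR-3107-5p from nucleus accumbens to either muscle passed under every alternative run, from 1.39 to 6.66 and 3.11 to 4.30 in the soleus and from 2.19 to 7.65 and 4.31 to 5.56 in the EDL. The brain values of miR-486-3p were not above background, so its ranges here are not measured folds. The 4 differences of shift were rerun only with a floor of 1 unit, with the mean of probes and without single arrays, and passed in all of these. Without single arrays they ran from 3.35 to 3.65, 5.53 to 5.73, 2.00 to 2.29 and 1.78 to 2.11. The mouse as a replicate block, fixed or random, changed no call of a member between tissues; it turned only the uncalled difference of miR-144-3p between EDL and nucleus accumbens, to 0.20 and 0.022. The causes of the changes below were not tested. Feature brightness over background limits miR-144-3p and miR-144-5p, which stood at the floor on most arrays. The normexp correction used median spot signals. miR-144-3p in soleus against nucleus accumbens passed with slide as a block (0.81). The alternatives with mouse miRNAs only, a floor in the lower bounds, slide-centred relations and relations without single arrays were chosen after seeing the data. Where an arm was left with 1 array, that array was assumed to vary like the others.

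The strain difference of miR-3107-5p in the nucleus accumbens no longer passed with scaling over all probes (-1.01), no scaling (-0.85), quantile normalization (-1.19), outlier spots kept (-1.26), a floor of 1 unit (-1.23), the mean of probes (-1.23), the scanner's total signal (-1.17), mouse miRNAs only (-1.23), no filter (-1.23), slide as a block (-0.91) or the authors' table (-1.28), with adjusted p from 0.0407 to 0.487 over all alternatives; within slide 2 it was -0.34 against -0.18 for miR-451a, and without single arrays -1.40 to -0.97. In the soleus the strain difference of miR-451a passed only with no scaling (-0.96), where that of miR-3107-5p turned to -0.40. There miR-486-3p turned to 0.10 with scaling over all probes, 0.085 with normexp and 0.056 with slide as a block, and was 0.25 within slide 1, where miR-3107-5p was 0.65. miR-3107-3p turned likewise to 0.11, 0.11 and 0.049, and to 0.037 with the scanner's total signal, and miR-144-3p to -0.78 in the authors' table. In the EDL the strain difference of miR-451a turned to -0.12 with the scanner's total signal and -0.049 in the authors' table, and miR-3107-3p to -0.21 with the scanner's total signal. Within slide 1, where the low-active array was the dim one of mouse 195, miR-451a, miR-486-3p and miR-3107-5p were at 0.89, 0.97 and 1.37. Without single arrays miR-451a ran from -0.34 to 0.23 and miR-3107-5p from -0.12 to 0.56.

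Between tissues, miR-451a in soleus against nucleus accumbens passed with scaling over all probes (0.83). In EDL against nucleus accumbens it failed with that scaling (-0.13), quantile normalization (-0.61), the scanner's total signal (-0.68) and no filter (-0.79), and ran from -1.03 to -0.54 without single arrays. In EDL against soleus it failed with scaling over all probes (-0.97), no scaling (-1.31), quantile normalization (-0.94), the scanner's total signal (-0.996) and no filter (-1.07), and ran from -1.19 to -0.85. With no scaling the rises from soleus to EDL of miR-486-3p (0.75), miR-3107-5p (1.00) and miR-3107-3p (0.79) failed, and with a floor of 1 unit that of miR-486-3p (0.99). The uncalled difference of miR-144-3p between EDL and nucleus accumbens turned to 0.34 after quantile normalization, 0.32 when all probes set the scaling, 0.14 with normexp, 0.027 with the scanner's total signal and 0.14 with slide as a block, and ran from -0.18 to 0.15 without single arrays. The interaction of miR-451a for soleus against nucleus accumbens turned to -0.0057 with no scaling, and that of miR-3107-5p passed without the EDL array of mouse 195 (1.71).

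The correlation of miR-451a and miR-3107-5p in the nucleus accumbens ran from 0.88 to 0.98 without single arrays, failing without mouse 194 or 197, and was 0.79 without the farthest 2. In the soleus it lost its call with deviations from strain (-0.93) or slide means (-0.90), without the farthest 2 (-0.98), with scaling over all probes (-0.54) and quantile normalization (-0.92), turned to 0.28 with no scaling, and ran from -0.98 to -0.91 without single arrays, failing in all 6 cases. miR-451a and miR-486-3p turned to 0.57 in the soleus with no scaling and ran from -0.044 to 0.75 in the EDL without single arrays. miR-486-3p and miR-3107-5p gained a call in the soleus with strain deviations (0.96) and quantile normalization (0.84), and lost it in the EDL without the farthest 2 (0.89) and with no scaling (0.99), with 0.91 to 0.97 without single arrays, failing in all 6 cases.

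The counts of miRNAs that passed ran, over the alternatives, from 4 to 38 between strains in the nucleus accumbens against 27, from 0 to 52 in the soleus against 4 (the 52 with no scaling), from 0 to 9 in the EDL against 1, and from 43 to 90 between the muscles against 74. For the interactions they ran from 0 to 40 against 17, 0 to 24 against 11 and 0 to 6 against 1, and with mouse as a fixed block they were 8, 2 and 0. Without single arrays they ran from 8 to 31, 0 to 7 and 0 to 4 between strains, 48 to 119 between the muscles and 4 to 50, 4 to 22 and 0 to 2 for the interactions.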

Other observations

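The 5 miRNAs whose deviations from the 6 group means were most like those of miR-451a, among 242 miRNAs detected on 15 or more arrays, were miR-106b-5p (r = 0.86 over 19 arrays), miR-378b (0.82), miR-30a-5p (0.76), miR-337-3p (0.75) and miR-148b-3p (0.73). For miR-3107-5p they were miR-378a-5p (0.94), miR-532-5p (0.91), miR-28c (0.88), miR-365-3p (0.87) and miR-107-3p (0.87). The 2 sets of 5 shared no miRNA, which is the usual outcome for unrelated sets of 5 out of 242 and sets the 2 members no further apart. All values of an array share its scaling, and these correlations are descriptions over arrays of 3 tissues.

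In the authors' table the old names miR-451 and miR-3107 followed the scanner's total signal of miR-451a and miR-3107-5p over the arrays of a tissue, with r from 0.64 to 0.93 for the first and from 0.69 to 0.93 for the second.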
